A study of Mus musculus with 3 samples.

Results

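The cells described here are macrophages of the mouse sciatic nerve that held the RNA of Gpnmb 5 days after nerve crush, an injury that cuts the axons and leaves the nerve sheath in place. They were chosen from the day 5 library as cells with at least 200 detected genes, at most 10% mitochondrial molecules and at least 2 UMIs of Gpnmb. A UMI, or unique molecular identifier, is the tag by which a captured RNA molecule is counted a single time. The rule found 147 of the 2059 day 5 cells, or 7.14% (exact Clopper-Pearson 95% interval 6.06 to 8.34%). The series held 3 single-cell libraries of sciatic nerve macrophages from C57BL/6 mice, namely uninjured nerve (called steady state), nerve at 1 day after crush and nerve at 5 days after crush, with 5580 cells kept in all. No genetic change is labelled, and the crush is the only treatment. The sort that gave the macrophages and the number of animals behind each library are not stated in these sources. Each time point is a single library without a replicate, so no p-value is given, and every interval below covers counting error only. A Gpnmb UMI chose the cells, so the level of Gpnmb itself is a description. Fabp5, Spp1 and Lgals3 were proposed as markers of these cells with earlier results of the same data in view.

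Gpnmb encodes a glycoprotein of the lysosome, melanosome and cell surface that macrophages make when their lysosomes are loaded or stressed. After a peripheral nerve is crushed, the myelin and axons beyond the injury break down, and macrophages and Schwann cells clear the debris, which is rich in cholesterol and other lipids. Macrophages that handle much lipid, as in fat tissue, atherosclerotic vessels and demyelinated nerve tissue, are known to share a programme with Trem2, a lipid-sensing receptor, Fabp5, a fatty acid carrier, Lgals3, a sugar-binding protein recruited to damaged lysosomes, and Spp1, the secreted matrix protein osteopontin. Genes of lysosomal enzymes are known targets of the MiT-TFE transcription factors, which bind the palindrome CACGTG and the related letters TCATGTG.

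The sequences upstream of 3 genes are shown because they are the gene that chose the cells and the genes of a pair of lysosomal proteases, cathepsin D and cathepsin L, that were more abundant in them. Each is the 250 bases before the annotated RefSeq start in GRCm38.p6, written 5′ to 3′ on the gene's strand, with each CACGTG in capitals. Gpnmb lies at chr6:49036268-49036517 on the plus strand, Ctsd at chr7:142387828-142388077 on the minus strand and Ctsl at chr13:64370521-64370770 on the minus strand.
Gpnmb: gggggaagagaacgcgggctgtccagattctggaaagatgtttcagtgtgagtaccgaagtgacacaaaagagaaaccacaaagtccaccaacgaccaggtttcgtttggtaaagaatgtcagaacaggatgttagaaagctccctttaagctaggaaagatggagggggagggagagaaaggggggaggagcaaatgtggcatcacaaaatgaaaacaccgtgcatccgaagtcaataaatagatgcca
Ctsd: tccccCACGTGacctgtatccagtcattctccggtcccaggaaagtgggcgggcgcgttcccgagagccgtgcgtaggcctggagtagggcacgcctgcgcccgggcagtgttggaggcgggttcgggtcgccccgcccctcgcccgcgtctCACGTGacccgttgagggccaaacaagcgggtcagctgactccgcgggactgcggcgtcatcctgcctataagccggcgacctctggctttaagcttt
Ctsl: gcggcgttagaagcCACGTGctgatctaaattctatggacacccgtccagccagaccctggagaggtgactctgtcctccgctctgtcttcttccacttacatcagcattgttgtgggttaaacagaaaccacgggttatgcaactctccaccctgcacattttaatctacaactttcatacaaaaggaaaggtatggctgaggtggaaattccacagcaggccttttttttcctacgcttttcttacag
The Ctsd stretch held 2 matches, the Ctsl stretch held 1, and the Gpnmb stretch held neither CACGTG nor TCATGTG. In windows of 300 bases (250 before to 50 after the start, both strands, motifs that cannot overlap each other), CACGTG stood in 9 of the 28 lysosomal hydrolase genes with a window (32.1%) and TCATGTG in 7 (25%). Both proteases shown, Ctsd and Ctsl, were among those 9 genes, and other more abundant hydrolases, such as Ctsb, are not shown. Among lysosome membrane and proton pump genes, 7 of 22 windows held CACGTG (31.8%) and 2 held TCATGTG (9.09%). Over all 27025 genes with a window the shares were 8.09% and 4.31%. Of Gpnmb and the 12 leading higher genes described below, 10 had a window, and Ctsd alone held CACGTG (10%). Of the 12 leading lower genes, 9 had a window, and Plbd1 alone held CACGTG (11.1%). Both shares lay near that over all genes. A match is a string of letters and not a measured binding site.

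The day 5 library held 5524496 UMIs, the day 1 library 7975791 in 2793 kept cells and the steady-state library 1658022 in 728 kept cells, with median depths of 2473, 2555 and 2238.5 UMIs per cell. The doublet caller marked 8 day 5 cells and none of the Gpnmb-positive ones, too few calls to rely on. The day 1 and day 5 libraries shared 11 cell barcodes, and 1 Gpnmb-positive day 1 barcode also occurred at day 5, where it was not Gpnmb-positive. Requiring 2 UMIs of 1 gene favours deep cells. The Gpnmb-positive cells had a median of 3505 UMIs (688 to 8036) against 2344 in all day 5 cells without a Gpnmb UMI. Each was therefore matched to 2 day 5 cells with 0 Gpnmb UMIs whose depth lay within 15% of its own, which gave 294 matched cells with a median of 3503 UMIs (683 to 7991). Detected genes were 1050 per Gpnmb-positive cell and 1080.5 per matched cell in the median. Mitochondrial UMIs made up 0.456 and 0.406%, and ribosomal protein UMIs 13.9 and 16.1%.

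Of the 147 cells, 60 held 2 Gpnmb UMIs, 29 held 3, 16 held 4 and 42 held 5 or more, with a median of 3 and a highest count of 24. They held 598 of the 714 Gpnmb UMIs in the library (83.8%). Just outside the rule lay 116 cells with 1 Gpnmb UMI, at a median depth of 2934.5 UMIs. The day 1 library met the same rule in 206 cells, or 7.38% (6.43 to 8.41%), while the steady-state library met it in 0 of 728 cells (taken as 3 counts, a count of 0 allows up to 0.412%, and the exact Clopper-Pearson upper limit is 0.505%). No steady-state cell held even 1 Gpnmb UMI. After each cell was thinned to 1500 UMIs, 65 of 1440 day 5 cells (4.51%), 90 of 2057 day 1 cells (4.38%) and 0 of 584 steady-state cells still met the rule, with 619, 736 and 144 shallower cells left out. As values that free RNA could reach, the day 5 cluster marked by Cd209 lectins had a Gpnmb UMI in 1 of 59 cells (1.69%, median depth 1436 UMIs). Other clusters with few Gpnmb-positive cells had one in 3.40% (cluster 7, median depth 1314), 3.69% (cluster 4, 4065) and 5.65% (cluster 2, 2281) of cells, while the cluster with most Gpnmb-positive cells had one in 36.2% of its cells (median depth 3262 UMIs).

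The 3 genes proposed as companions of Gpnmb were all higher in these cells. Levels are given as CPM, a gene's UMIs scaled to a total of 1e+06 UMIs of a cell or of summed cells. Fabp5 ranged from 0 to 11768 CPM per Gpnmb-positive cell with a median of 1142, and from 0 to 6601 with a median of 0 in matched cells. It had a UMI in 79.6% of Gpnmb-positive and 36.7% of matched cells, and in 66.9 and 25.4% after thinning to 1500 UMIs. The groups overlapped, the shares depended on depth, and how much of them was free RNA was not tested. Summed over cells, Fabp5 stood at 1882 against 285 CPM, 6.61-fold higher (log2 2.72, 95% interval 2.54 to 2.91).

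Spp1 ranged from 0 to 31292 CPM with a median of 3958 per Gpnmb-positive cell, and from 0 to 31454 with a median of 505 per matched cell. The highest cells of both groups therefore held similar Spp1 levels, and the groups differed in how many cells were high. The summed Spp1 level was 6771 against 1849 CPM, 3.66-fold higher (log2 1.87, 1.79 to 1.95). Lgals3 ranged from 0 to 18997 CPM with a median of 3325, against 0 to 14763 with a median of 1321. Its RNA was found in most cells of either group, 92.5% of Gpnmb-positive and 85.7% of matched cells. The summed Lgals3 level was 4831 against 2066 CPM, 2.34-fold higher (log2 1.23, 1.14 to 1.31). In 86 of the 147 cells (58.5%) Fabp5, Spp1 and Lgals3 all exceeded the median of the matched cells, as they did in 36 of 294 matched cells (12.2%). A further 45 Gpnmb-positive cells exceeded it in 2 of the 3 genes and 16 in 1. None lay at or below it in all 3, against 48 matched cells.

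**Figure D1:**
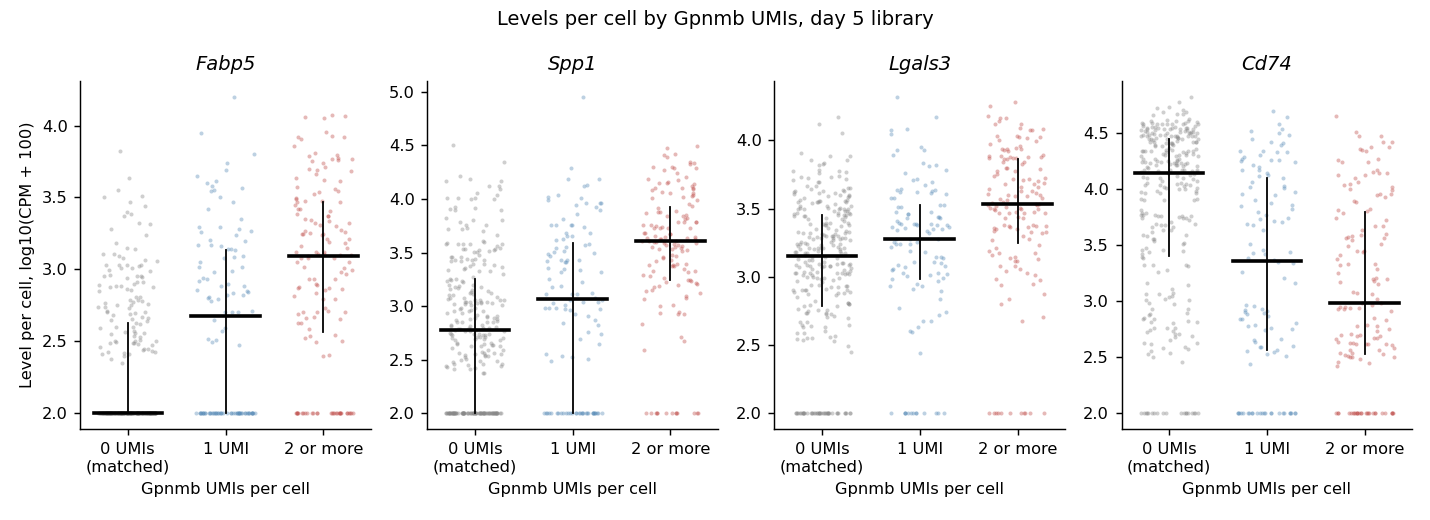
Level per day 5 cell of Fabp5, Spp1, Lgals3 and Cd74 on a log10(CPM + 100) axis, in matched cells with 0 Gpnmb UMIs, cells with 1 and cells with 2 or more (points: cells, horizontal bars: medians, vertical bars: quartiles). The medians of Fabp5, Spp1 and Lgals3 are higher and that of Cd74 lower in cells with 2 or more Gpnmb UMIs (1142, 3958, 3325 and 858 CPM) than in matched cells (0, 505, 1321 and 13735 CPM), and the clouds of cells overlap.

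Over all genes, 2227 had a mean of at least 50 CPM in the 2 groups and were compared, Gpnmb left out. Of these, 194 (8.71%) were at least 1.5-fold higher in the Gpnmb-positive cells and 336 (15.1%) at least 1.5-fold lower, with a median log2 ratio of -0.10. With the totals rescaled so that the median gene was level, 252 (11.3%) were higher and 247 (11.1%) lower. The surplus of lower genes under the plain totals was not there after this rescaling. At least 2-fold differences were found in 66 genes (2.96%) that were higher and 85 (3.82%) that were lower. The 12 leading lower genes were Ccl5, Ccr2, Plac8, Plbd1, H2-DMb1, Ms4a4c, H2-Aa, Marcksl1, Cd81, H2-Ab1, Tmem176a and Cd74, with log2 ratios from -3.03 for Ccl5 to -1.69 for Cd74.

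The 12 leading higher genes, by ratio at a mean of at least 100 CPM, were Fabp5, Syngr1, Cela1, Pld3, Sgpl1, Spp1, Hilpda, Ctsd, Slc48a1, Creg1, Hmox1 and Cd63. Syngr1, a vesicle membrane protein, ranged from 0 to 3325 CPM per Gpnmb-positive cell with a median of 298, and from 0 to 1526 with a median of 0 per matched cell. Its RNA was detected in 57.1% of the former and 17.0% of the latter, and its summed level was 571 against 91.9 CPM (log2 2.64, 2.30 to 2.98). Pld3, an exonuclease of the lysosome that degrades single-stranded nucleic acids, stood at 312 against 81.5 CPM (log2 1.93) and was detected in 55.1 and 20.7% of cells. These genes differed over many cells, whereas Sgpl1 and Cela1 rested on fewer. Sgpl1, the lyase that ends the sphingosine-1-phosphate pathway, stood at 181 against 47.8 CPM (log2 1.92), but 3 cells held 51.5% of its UMIs in the Gpnmb-positive cells. Cela1, an elastase, stood at 170 against 34.7 CPM (log2 2.29, 1.72 to 2.88), with a UMI in 30.6 and 9.18% of cells, and its log2 ratio was 1.19 against all cells without Gpnmb.

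**Figure D2:**
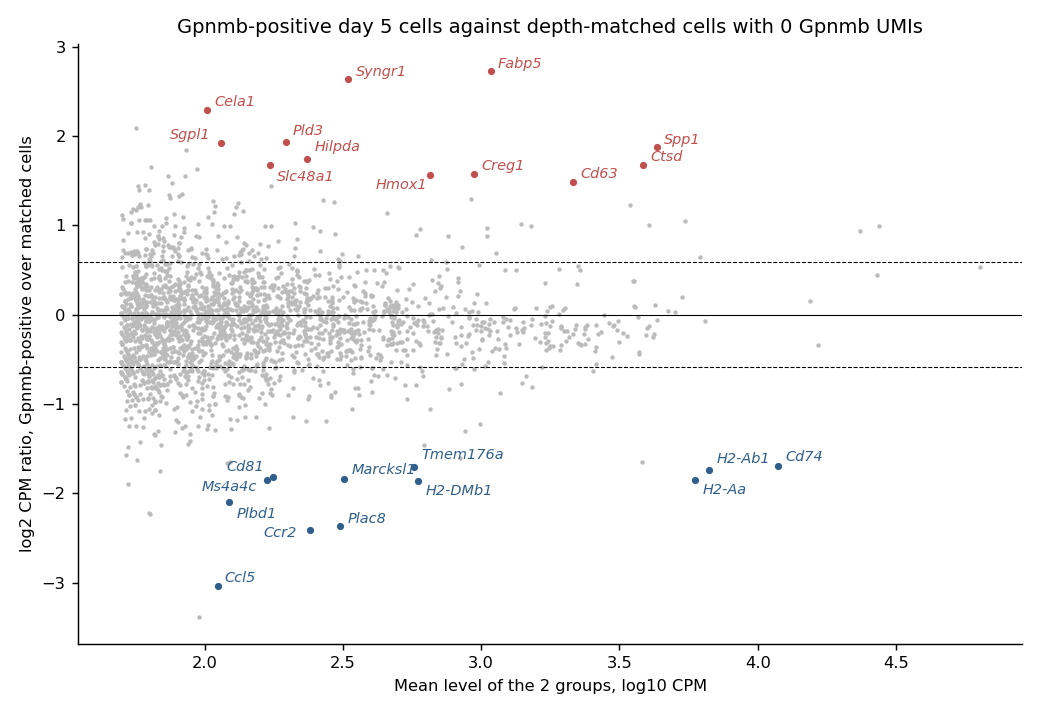
log2 CPM ratio of Gpnmb-positive day 5 cells over depth-matched cells with 0 Gpnmb UMIs (y) against the log10 of the mean CPM of the 2 groups (x), 1 point per gene at a mean of at least 50 CPM. Dashed lines mark 1.5-fold, and the 12 leading genes each way are coloured and named, from Fabp5 at 2.72 down to Ccl5 at -3.03.

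Genes of lipid handling were mostly higher. In the lipid-associated macrophage list, 24 genes reached the level of 50 CPM, and 15 were at least 1.5-fold higher and 1, the receptor kinase Axl, lower, with a median log2 ratio of 1.01 against -0.10 over all genes. The list held 12.1% of all UMIs in the Gpnmb-positive cells and 7.47% in the matched cells. Without Fabp5, Spp1 and Lgals3 it still held 12 higher genes of 21, with a median of 0.97. Trem2 ranged from 0 to 7599 CPM with a median of 1631, against 0 to 12006 with a median of 708, and the highest Trem2 level belonged to a matched cell. The summed Trem2 level was 2015 against 1013 CPM (log2 0.99, 0.87 to 1.11). The tetraspanins Cd63, a protein of late endosomes, and Cd9 had summed levels of 3160 against 1129 CPM (log2 1.49) and 416 against 173 CPM (log2 1.26).

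Among genes of fatty acid uptake and lipid droplets, 7 of the 32 listed reached 50 CPM, and 5 of these were higher and none lower (median log2 0.78). Hilpda, an inhibitor of triglyceride breakdown on lipid droplets, stood at 362 against 108 CPM (log2 1.75, 1.41 to 2.09). The fatty acid receptor Cd36 stood at 82.1 against 34.7 CPM (log2 1.24), the cholesterol-esterifying enzyme Soat1 at 93.3 against 54.4 CPM (log2 0.78) and the droplet coat protein Plin2 at 899 against 596 CPM (log2 0.59). All 4 store lipid or bring it into the cell. Lipoprotein lipase, Lpl, was at 166 against 130 CPM (log2 0.35).

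Of the cholesterol efflux and lipoprotein list, 7 genes reached 50 CPM, 2 were higher and none lower (median log2 0.51). These were Abca1, the transporter that loads cholesterol onto apolipoproteins, at 91.4 against 34.7 CPM (log2 1.40, 0.75 to 2.05), and Lipa, the lysosomal acid lipase, at 257 against 163 CPM (log2 0.66). Apoe, the apolipoprotein that carries cholesterol out of macrophages, ranged from 3371 to 238188 CPM with a median of 66330, against 1103 to 233967 with a median of 47210. Every cell of both groups thus held Apoe RNA, and its summed level was 1.44-fold higher, 74874 against 51893 CPM (log2 0.53, 0.51 to 0.55), short of 1.5-fold. Of the cholesterol synthesis list a single gene, Ebp, reached 50 CPM, at 118 CPM in each group, so synthesis could not be described at this depth.

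Genes of lysosomal enzymes were mixed between higher and level. Of 27 hydrolases and activators at 50 CPM or more, 13 were at least 1.5-fold higher and 1, the protease Ctsc, lower (1048 against 1773 CPM), with a median log2 ratio of 0.54. Together they took 4.14% of UMIs in Gpnmb-positive and 2.43% in matched cells. Ctsd, whose upstream stretch is shown above, ranged from 410 to 15432 CPM with a median of 4852, against 0 to 15189 with a median of 1167. It had a UMI in 147 of 147 Gpnmb-positive and 263 of 294 matched cells. Its summed level was 3.20-fold higher, 5850 against 1828 CPM (log2 1.68, 1.60 to 1.76).

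Creg1, a secreted glycoprotein that also acts in lysosomes, stood at 1418 against 475 CPM (log2 1.58), and the proteases Ctsl and Ctsb at 1306 against 531 CPM (log2 1.30) and 7374 against 3553 CPM (log2 1.05). Psap, the precursor of the saposins that help to break down sphingolipids, stood at 5389 against 2684 CPM (log2 1.01). These are proteins of the lysosome's interior. Of 20 membrane and proton pump genes, 4 were higher and none lower (median log2 0.40): Cd63, Cd68 at 1393 against 710 CPM (log2 0.97), the pump subunit Atp6v1a at 89.5 against 46.9 CPM (log2 0.93) and the transporter Scarb2 at 140 against 90.9 CPM (log2 0.62). Of 10 MiT-TFE and autophagy genes, 1 was higher: Rragc, a GTPase that places mTORC1 on lysosomes, at 83.9 against 30.9 CPM (log2 1.44). The median of that list was 0.18.

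Iron and heme genes were also higher, in 6 of the 8 that reached 50 CPM and lower in none (median log2 0.86). The list took 7.03% of UMIs in Gpnmb-positive and 3.63% in matched cells, most of it from the ferritin subunits. Ftl1, the ferritin light chain, ranged from 4916 to 159076 CPM with a median of 27180, against 2395 to 127007 with a median of 13911. Its summed level was 36527 against 18327 CPM (log2 1.00), and that of the heavy chain Fth1 30873 against 16102 CPM (log2 0.94). The lowest Gpnmb-positive cell still held 4916 CPM of the light chain. Hmox1, the enzyme that opens heme, stood at 976 against 330 CPM (log2 1.56, 1.37 to 1.76), 3 cells held 29.6% of its UMIs in the Gpnmb-positive cells, and with 1 partner per cell the log2 ratio was 2.47. Slc48a1, a transporter that moves heme out of lysosomes, stood at 263 against 82.5 CPM (log2 1.67). Of 15 antioxidant genes, 4 were higher and 1 lower (median 0.26), beside 8.71% higher and 15.1% lower over all genes. Among the higher ones was Gclm of glutathione synthesis at 103 against 59.1 CPM (log2 0.80).

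Genes of class II antigen presentation were lower. All 6 that reached 50 CPM, of 10 listed, were at least 1.5-fold lower, with a median log2 ratio of -1.72, and the list took 1.37% of UMIs in Gpnmb-positive and 4.55% in matched cells. Cd74, the invariant chain that escorts class II molecules, ranged from 0 to 44631 CPM with a median of 858, against 0 to 66332 with a median of 13735. Its quartiles, 241 to 6176 against 2441 to 27845 CPM, overlapped. The summed Cd74 level was 3.23-fold lower, 5618 against 18151 CPM (log2 -1.69, -1.75 to -1.64). H2-Aa, a class II chain, stood at 2583 against 9306 CPM (log2 -1.85, -1.93 to -1.77), and H2-DMb1, part of the peptide exchanger, at 256 against 926 CPM (log2 -1.86). Cd74 lay below the matched median in 128 of 147 Gpnmb-positive cells (87.1%).

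Several genes of incoming monocytes and of inflammation were lower. Of 10 monocyte and granule genes, 1 was higher and 5 lower (median log2 -0.76). Ccr2, the chemokine receptor that brings monocytes from blood into tissue, had a UMI in 28 of 147 Gpnmb-positive cells (19.0%) and 138 of 294 matched cells (46.9%). Its summed level was 5.32-fold lower, 76.5 against 407 CPM (log2 -2.41, -2.91 to -1.95). Ly6c2, a surface marker of inflammatory monocytes, had a UMI in 7 (4.76%) and 36 (12.2%) cells and stood at 59.7 against 187 CPM (log2 -1.65), with 84.4 and 47.5% of its UMIs from 3 cells. Plac8 stood at 101 against 519 CPM (log2 -2.37), with 50% of its UMIs in the Gpnmb-positive cells from 3 cells. The higher gene, Clec4d, a lectin receptor, stood at 119 against 46.9 CPM (log2 1.35).

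Of 14 cytokine and chemokine genes, none was higher, 4 were lower and 10 were neither (median log2 -0.31). Over all genes, 8.71% were higher and 15.1% lower. Il1b, the precursor of the cytokine interleukin 1 beta, stood at 416 against 1268 CPM (log2 -1.61). Ccl5, a chemokine for T cells, had the lowest ratio of the 12 leading lower genes, 24.2 against 199 CPM (log2 -3.03, -3.97 to -2.23), but its UMIs came from 5 Gpnmb-positive and 18 matched cells. Of 8 interferon response genes, 6 were lower and none higher (median log2 -0.89), with 0.212 against 0.334% of UMIs. The transcription factor Irf7 stood at 108 against 207 CPM (log2 -0.94).

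Of 7 cell cycle genes, 4 were lower and none higher (median log2 -0.59), beside 15.1% lower and 8.71% higher over all genes. Mitotic genes had 3 or more UMIs in 4 Gpnmb-positive cells (2.72%) and 12 matched cells (4.08%). Of 21 immediate early and heat shock genes, 6 were lower and none higher (median log2 -0.44), with Egr1, a factor induced within minutes of stimulation, at 140 against 262 CPM (log2 -0.90). Such genes can be induced while tissue is taken apart, and their part in the result was not tested.

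Other lists had medians near that of all genes. Complement took 1.67% of UMIs in both groups, with no gene of 9 higher and 1 lower (median log2 -0.07). C1qa, a chain of the complement starter C1q, had medians of 4687 and 4558 CPM per cell, with ranges of 0 to 24573 and 0 to 23446. Of 26 oxidative phosphorylation genes, none was higher and 1 was lower (median -0.02), and they took 1.13 and 1.15% of UMIs. Wound repair genes were split, with 4 of 15 higher and 3 lower (median 0.09), beside 8.71% higher and 15.1% lower over all genes. Arg1, which turns arginine into ornithine in repair macrophages, stood at 379 against 156 CPM (log2 1.28, 0.98 to 1.59), and Igf1, a growth factor, at 285 against 140 CPM (log2 1.03). Retnla, a secreted marker of alternatively activated macrophages, stood at 595 against 1388 CPM (log2 -1.22), with 72.1% of its UMIs in the Gpnmb-positive cells from 3 cells. Of 12 resident macrophage genes, 2 were higher and 2 lower (median 0.00): besides Trem2 the growth-arrest ligand Gas6 was higher (log2 0.67), the tetraspanin Cd81 lower (log2 -1.81), as was the fractalkine receptor Cx3cr1 (125 against 222 CPM, log2 -0.83).

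**Figure D3:**
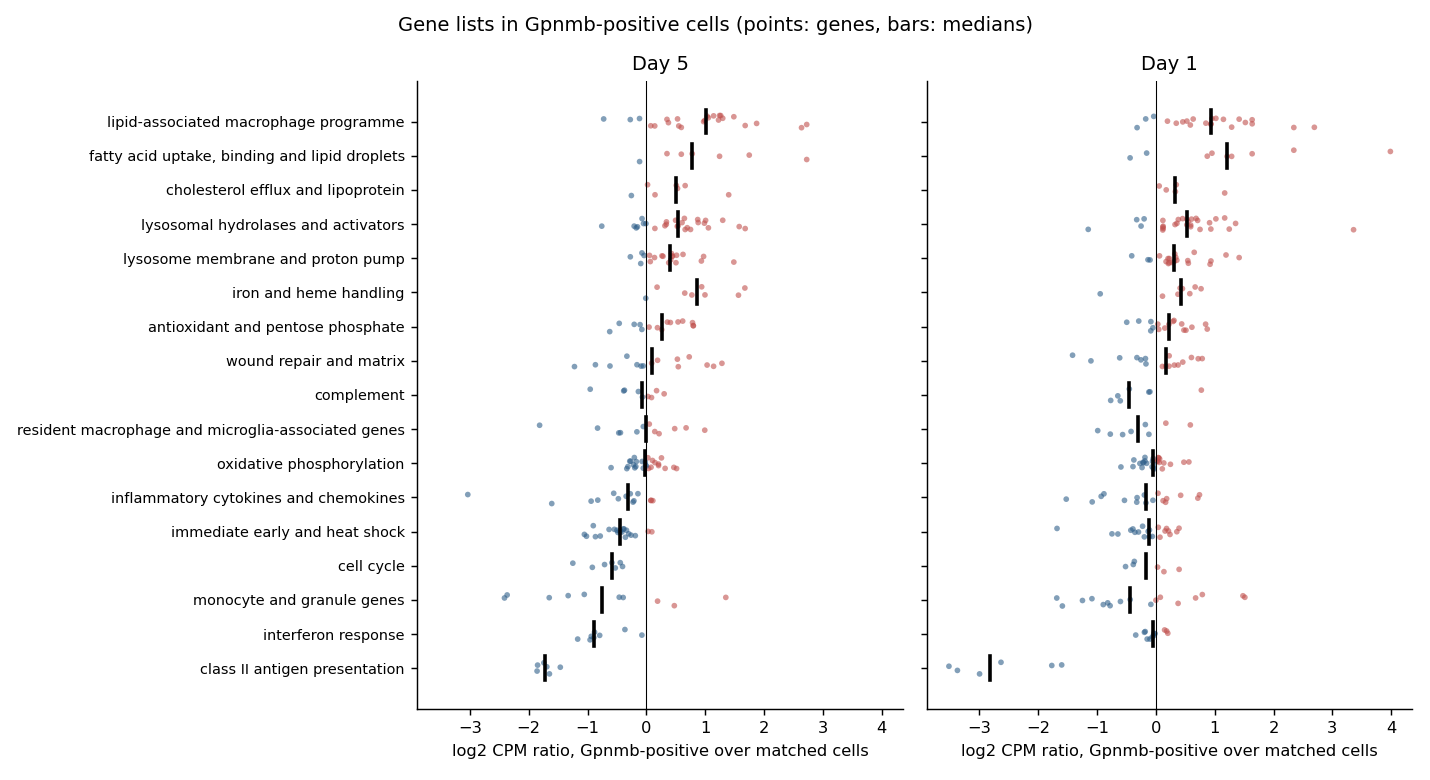
log2 CPM ratios of Gpnmb-positive over depth-matched cells for the genes of 17 lists at a mean of at least 50 CPM (points: genes, red above 0 and blue below, black bars: medians), at day 5 (left) and day 1 (right). At day 5 the lipid-associated, iron and fatty acid lists have the highest medians (1.01, 0.86 and 0.78) and the class II list the lowest (-1.72), and at day 1 the class II median is -2.81.

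Cells were also divided by their number of Gpnmb UMIs, the value the rule used, and the levels of several genes were ordered by it. Over matched cells with 0 Gpnmb UMIs, cells with 1, with 2, with 3 or 4 and with 5 or more, Fabp5 stood at 285, 835, 1166, 1846 and 2646 CPM. In the same order Spp1 stood at 1849, 3997, 4412, 6952 and 9031 CPM and Ctsd at 1828, 3768, 4507, 5507 and 7520 CPM. Cells with 1 Gpnmb UMI thus lay between those with 0 and those with more for each of these 3 genes. Ccr2 went the other way, with 407, 227, 94.5, 81.4 and 53.8 CPM. Cd74 stood at 18151, 9324, 5116, 5369 and 6347 CPM, so it was lower in cells with 1 UMI and lower again with 2, with no further decrease beyond. Apoe was highest with 3 or 4 Gpnmb UMIs (84593 CPM) and lower with 5 or more (73621 CPM). Cela1 (34.7, 125, 184, 225 and 108 CPM) and Ccl8 (510, 1342, 399, 632 and 317 CPM) had no such order either. All these levels are of day 5. At day 1 Fabp5 kept the order (879, 2961, 3493, 4785 and 5078 CPM). There Spp1 (7418, 9354, 16794, 12527 and 21066 CPM) broke it at 3 or 4 Gpnmb UMIs. So did Ctsd (1874, 2898, 3437, 3242 and 4172 CPM) and Ccr2 (372, 196, 132, 149 and 81.9 CPM). Per cell, the relation among the 147 was weak: Spearman's rho of CPM with Gpnmb was 0.32 for Fabp5, 0.06 for Spp1 and 0.01 for Lgals3. Depth enters these values. With a cell's UMI total, rho was -0.55 for Gpnmb CPM, -0.09 for Fabp5 and 0.21 for both Spp1 and Lgals3. How far depth and the cut-off of the rule lowered the relation was not tested. The 5 classes of 294, 116, 60, 45 and 42 cells had median depths of 3503, 2934.5, 3016, 3524 and 4580 UMIs, so the class with most Gpnmb UMIs was also the deepest, and its part in these orders was not tested.

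**Figure D4:**
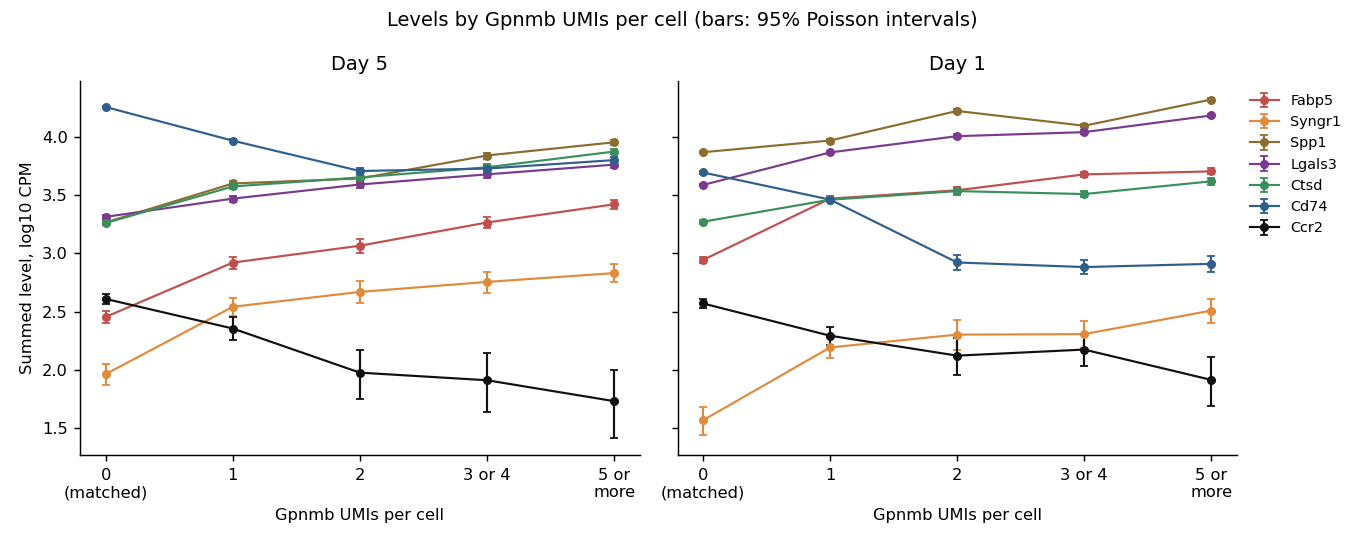
Summed level (log10 CPM) of 7 genes by the number of Gpnmb UMIs per cell at day 5 (left) and day 1 (right), with 95% Poisson intervals. At day 5 Fabp5 goes from 285 CPM in matched cells to 2646 CPM in cells with 5 or more Gpnmb UMIs, and Ccr2 from 407 to 53.8 CPM.

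The Gpnmb-positive cells were not uniform, and their class II levels covered the range from none to high. Cd74 was below 2000 CPM in 87 of the 147 cells (59.2%), above 10000 CPM in 26 (17.7%) and between in 34, while the matched cells held 69 (23.5%), 169 (57.5%) and 56. These are ranges set after the values were seen and not cell types. In the 26 Cd74-rich cells Spp1 stood at 7670 CPM against 6981 in the 87 Cd74-poor ones. Ctsd stood at 5380 against 5882 CPM and Fabp5 at 1414 against 2056 CPM. Among matched cells the same ranges held 1086 against 4515 CPM of Spp1, 1306 against 3392 CPM of Ctsd and 189 against 611 CPM of Fabp5. Cd74-rich matched cells therefore had less of these 3 RNAs than Cd74-poor matched cells. Whether that gap differed in the Gpnmb-positive cells was not tested. The Cd74-rich Gpnmb-positive cells held more Ccr2 (174 against 36.9 CPM) and Lgals3 (5701 against 4641 CPM). They held less Hmox1 (443 against 1227 CPM), Trem2 (1406 against 2284 CPM) and Arg1 (208 against 540 CPM). They also held less Apoe (64183 against 82821 CPM) and Syngr1 (347 against 624 CPM). Their median depth was 4452 against 3279 UMIs.

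Arg1 was found in 50 Gpnmb-positive cells (34.0%) and 53 of 294 matched cells. The 50 cells had more Spp1 than the 97 without (8211 against 5869 CPM) and more of the matrix genes Fn1, fibronectin (571 against 328 CPM), and Thbs1, thrombospondin 1 (450 against 313 CPM). They had less Ccl8, a chemokine (160 against 616 CPM), and less Syngr1 (421 against 665 CPM), while Cd74 was at 5548 against 5662 CPM. The Arg1-positive cells were also deeper, with a median of 4254.5 against 3155 UMIs. Across the 147 cells, which share a library and vary in depth, Spearman's rho of CPM was 0.63 for Fth1 with Ftl1, 0.52 for Ctsb with Ctsd, 0.37 for Spp1 with Apoe and 0.01 for Lgals3 with Spp1.

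When day 5 cells were clustered without Gpnmb, 1 cluster of 343 cells held 83 of the 147 (56.5%) and 48 of the 294 matched cells (16.3%). Its leading genes included Dcn, Slc40a1, Hmox1, Spp1, Syngr1, Fabp5 and Arg1, and 24.2% of its cells met the Gpnmb rule. A cluster of 271 cells led by Ccl5, Ly6c2, Hp and Cd209a held 4 (2.72%) and 71 (24.1%). The other Gpnmb-positive cells were spread over several clusters, with 21 in a cluster of shallow cells (median 1182 UMIs). Within the 343-cell cluster, 80 Gpnmb-positive cells could be matched to 160 cells of the same cluster. There, 216 of 2145 genes (10.1%) were higher by 1.5-fold or more and 249 (11.6%) lower. Fabp5 stood at 2177 against 539 CPM (log2 2.02), Syngr1 at 680 against 243 CPM (log2 1.48), Hilpda at 439 against 189 CPM (log2 1.22) and Lgals3 at 5194 against 2810 CPM (log2 0.89). Spp1 had a log2 ratio of 0.75, Ctsd 0.74, Cd63 0.66, Cela1 0.61 and Hmox1 0.53. All 9 of these genes were nearer to level within the cluster than over the whole library. Fabp5, Spp1, Syngr1 and Hmox1 are among the genes that lead the cluster. The part of the clustering in their smaller gap was not tested. Apoe stood at 80642 against 78497 CPM (log2 0.04), Trem2 had a log2 ratio of 0.29, Arg1 stood at 487 against 539 CPM (log2 -0.14) and Cd74 at 2289 against 4216 CPM (log2 -0.88). Ly6c2 (log2 1.61, -0.75 to 4.30, from 5 and 3 UMIs) and Gclm (log2 -0.48, -1.01 to 0.02) had the opposite sign there. Both intervals included no difference. The ferritin genes Ftl1 (log2 0.24) and Fth1 (log2 0.35) were also nearer to level within the cluster than over the whole library.

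Macrophage markers were present in these cells. The 9 looked at were Cd68, Csf1r, Adgre1, Fcgr1, Mertk, C1qa, C1qb, C1qc and Aif1. At least 1 UMI of them was found in all 147 cells and in all 294 matched cells, so this bar did not separate the groups. The 9 summed to 18129 CPM against 17971 CPM in matched cells, but single markers went both ways. Medians per cell were 1064 against 470 CPM for Cd68, 258 against 397 CPM for Csf1r and 658 against 960 CPM for Aif1. Mertk had a UMI in 6.12 and 4.76% of cells. Schwann cell and myelin genes summed to 138 against 124 CPM, with Sox10 at 0 UMIs in both groups. Fibroblast genes summed to 98.9 against 143 CPM, with Col1a1 and Pdgfra at 0 in both groups. Dendritic cell genes summed to 134 against 456 CPM, with UMIs of 8 of 15 genes in Gpnmb-positive and 10 in matched cells. Flt3, Cacnb3 and Itgae were at 0 in both groups, Zbtb46, Fscn1, Ccl17 and Ccl22 in the Gpnmb-positive cells alone, and Xcr1 and Clec9a in the matched cells alone. Neutrophil genes summed to 65.3 against 42.2 CPM, with S100a9 and Ly6g at 0 in both groups and S100a8 at 0 in the matched cells alone. The lower dendritic sum went with the lower class II genes, and its part in that result was not tested. Lipid itself was not measured here, so the word lipid rests on RNA of lipid-handling genes alone.

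The same rule in the day 1 library, whose cells did not enter the choice of the day 5 cells, gave 206 cells at a median of 3473.5 UMIs, matched to 412 cells at 3461 UMIs. Of 2380 genes compared, 196 (8.24%) lay at least 1.5-fold above their matched level and 227 (9.54%) below it, and after the median gene was made level 241 (10.1%) and 176 (7.39%). Fabp5 stood at 4461 against 879 CPM (log2 2.34), Lgals3 at 12062 against 3879 CPM (log2 1.64) and Spp1 at 16439 against 7418 CPM (log2 1.15). All 3 were thus higher in Gpnmb-positive cells of both libraries. Syngr1 stood at 238 against 36.8 CPM (log2 2.69). In the lipid-associated list 15 of 22 genes were higher and none lower (median log2 0.94, over all genes -0.07). Of 9 fatty acid and droplet genes 7 were higher (median 1.21), and of 29 hydrolases 13 were higher and 1 lower (median 0.53). All 6 class II genes were lower again (median -2.81), with Cd74 at 802 against 4971 CPM (log2 -2.63).

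Of 2015 genes compared in both libraries, 149 were higher at day 5 and 133 at day 1. They shared 60, which is 40.3% of the day 5 and 45.1% of the day 1 genes, while 6.60% of all compared genes were higher at day 1. Lower genes numbered 297 and 179, with 69 shared (23.2 and 38.5%), while 8.88% of all were lower at day 1. Some ratios differed between the days, and these differences were not tested. The heme enzyme Hmox1 had a log2 ratio of 1.56 at day 5 and 0.41 at day 1 (1261 against 947 CPM), and Arg1 1.28 and 0.31 (5081 against 4088 CPM at day 1). Within the cluster with most Gpnmb-positive cells, Hmox1 had 0.53 at day 5 and -1.10 at day 1. Arg1 had -0.14 and -0.37 there. Of 8 iron and heme genes, 6 were higher and none lower at day 5. At day 1, 2 of 8 were higher and 1 lower. Over all genes, 8.71% were higher and 15.1% lower at day 5, and 8.24% higher and 9.54% lower at day 1. Interferon genes, lower in 6 of 8 at day 5, had none of 12 higher or lower at day 1 (median -0.05). Cela1 was lower at day 1, at 9.52 against 34.1 CPM (log2 -1.84). Among genes noted after their values were seen, the fatty acid carrier Fabp4 had 119 UMIs in day 1 Gpnmb-positive cells against 15 in matched cells, and 27 against 0 at day 5. Ctsk, the protease of osteoclasts, stood at 147 against 14.3 CPM at day 1 (log2 3.36) and 9.33 against 11.2 CPM at day 5. The protease inhibitor Slpi stood at 698 against 250 CPM at day 1 and 22.4 against 10.3 CPM at day 5.

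**Figure D5:**
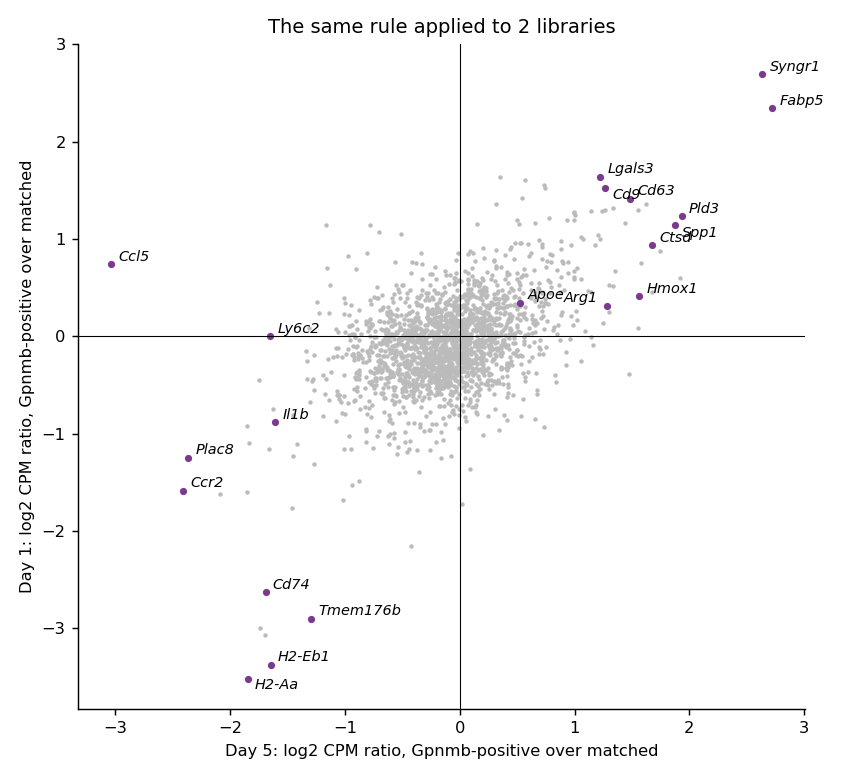
log2 CPM ratio of Gpnmb-positive over depth-matched cells at day 5 (x) and day 1 (y), 1 point per gene at a mean of at least 50 CPM in both comparisons, with named genes in purple. Fabp5 (2.72 and 2.34) and Syngr1 (2.64 and 2.69) lie at the upper right, class II genes such as Cd74 (-1.69 and -2.63) at the lower left, and Ccl5 (-3.03 and 0.74) at the upper left.

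Set side by side, the Gpnmb-positive cells of the 2 libraries had similar Gpnmb, 1115 CPM at day 5 and 1193 CPM at day 1, and differed in much else. Of 2268 genes, 297 (13.1%) were higher by at least 1.5-fold at day 5 and 584 (25.7%) lower, with a median log2 ratio of -0.20. After the median gene was made level these were 423 (18.7%) and 391 (17.2%). Apoe stood at 74874 against 13176 CPM (log2 2.51) and Cd74 at 5618 against 802 CPM (log2 2.81). Arg1 stood at 379 against 5081 CPM (log2 -3.75), Spp1 at 6771 against 16439 CPM (log2 -1.28), Lgals3 at 4831 against 12062 CPM (log2 -1.32) and Fabp5 at 1882 against 4461 CPM (log2 -1.24). The matched cells without Gpnmb differed between the libraries in the same direction, with log2 ratios of 2.32 for Apoe, 1.87 for Cd74, -4.72 for Arg1, -2.00 for Spp1, -0.91 for Lgals3 and -1.62 for Fabp5. Ctsd and Cela1 were different: Ctsd stood at 5850 against 3582 CPM in Gpnmb-positive cells (log2 0.71) with a log2 ratio of -0.04 in matched cells, and Cela1 at 170 against 9.52 CPM (log2 4.16) with 0.03 in matched cells. With 1 library per day, the day and the library cannot be told apart.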

How the data were processed

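The authors deposited 1 table per library of raw UMI counts per gene and cell barcode, not normalized, made with Cell Ranger 2.0.2 on mm10 per the submitters' processing notes; the labels name 10x Genomics version 1. Each table held 27998 genes. Cells were called before deposit in steps not given in the sources used here. Whether free RNA was removed from the counts is not stated there either, and no such step was applied here. A deposited table that pools the libraries was not used. Cells needed at least 200 genes and at most 10% mitochondrial UMIs, which left 5580 of 5586. Each Gpnmb-positive cell was matched to 2 cells with 0 Gpnmb UMIs within 15% of its depth, deepest first, with none used again. UMIs were summed and compared as CPM ratios with an exact conditional binomial 95% interval, at 50 CPM or more. Named genes are the 12 with the largest ratio each way at 100 CPM or more, without mitochondrial genes, ribosomal, globin and immunoglobulin genes or predicted models, up to 4 of each list, and a few markers. The members, markers and lists were chosen with earlier results of these data known. Clusters used scanpy 1.11.5 and the Leiden algorithm (python-igraph 0.11.9, 2000 variable genes, 30 components, 15 neighbours, resolution 1), and doublets scrublet. Calculations used numpy 2.4.6, scipy 1.17.1 and pandas 2.3.3, and were tested on simulated data. Promoters are RefSeq's.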

Additional observations from a re-analysis of the deposited data

Results flagged for a closer look

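Opposite calls were seen in 11 of the 2015 genes compared in both libraries. In these, the Gpnmb-positive cells were at least 1.5-fold above their matched cells in one library and as far below in the other. Of 149 genes higher at day 5, 3 were lower at day 1, while 8.88% of all compared genes were lower there. Of 297 lower at day 5, 8 were higher at day 1, while 6.6% of all were higher there. These differences between days were not tested, and most of the 11 genes are low. The chemokine Ccl5 had a log2 ratio of -3.03 at day 5 (24.2 against 199 CPM) and 0.74 at day 1 (84.3 against 50.4 CPM). Its UMIs came from 5 Gpnmb-positive and 18 matched cells at day 5 and from 7 and 16 at day 1, where 3 cells held 88.7 and 66.2% of them. The transcription factor Elf1 had -1.16 and 1.14, Rasgef1b -0.78 and 1.14, and Tmem230 -0.70 (-1.48 to 0.02) and 1.07. Naa50 had -1.16 and 0.71, Exosc8 -0.98 and 0.82, Rassf1 -0.91 and 0.69, and Ptbp3 -0.81 and 0.85. The other way round, Gm10269 had 0.73 at day 5 and -0.93 at day 1, Btf3l4 0.67 and -0.59, and the ubiquitin ligase Wwp1 0.66 and -0.85. Except for Ccl5, their levels lay between 33.6 and 159 CPM in all 4 groups of cells.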

How the results depend on the processing

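No paired analysis was possible because each time point is 1 library. Under the 9 settings that could move it for Gpnmb-positive against matched day 5 cells, the log2 ratio stayed between 2.31 and 3.28 for Fabp5, 1.76 and 2.13 for Spp1, 1.03 and 1.38 for Lgals3 and -1.74 and -1.30 for Cd74. Within the cluster with most Gpnmb-positive cells, an alternative chosen after the data were seen, these were outside that range, at 2.02, 0.75, 0.89 and -0.88. Counts of genes at least 1.5-fold apart depend on the filter on low levels. At day 5, 88 were higher and 145 lower from 100 CPM, 534 and 864 from 20 CPM, and 1963 and 2530 without a filter. At day 1 these were 89 and 94, 501 and 614, and 1989 and 2245. Between the days they were 169 and 319, 717 and 1216, and 2067 and 2472. With 1 or more Gpnmb UMIs, 217 were lower at day 5, and 105 were higher and 112 lower at day 1. Thinned to 1500 UMIs, 306 were higher at day 5. Within a single cluster 372 were higher at day 1. The share of Gpnmb-positive cells was 12.8% at day 5 and 14.8% at day 1 with 1 or more UMIs, 4.23 and 4.58% with 3 or more, and 4.51 and 4.38% after thinning.

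Some log2 ratios at day 5 moved by over 1.5 times. With 1 partner per cell Atp6v1a was 2.58, Gdf15 1.82 and Hmox1 2.47. Without depth matching Cela1 was 1.19 and Rragc 0.84, and with 1 or more Gpnmb UMIs Ccr2 was -1.56 and Cd81 -1.05. Others changed sign. Ifi47, an interferon-induced GTPase (-1.17), was 0.28 with 1 partner, 0.585 after thinning and 0.0002 within the cluster. Cd209f (0.71, from 14 and 17 UMIs) was -0.45 with 4 partners and -1.55 without matching. Within the cluster it held 1 UMI against 0, too few for a ratio. Within the cluster Arg1 was -0.14, Gas6 -0.0396, Gclm -0.48, Ly6c2 1.61, Mif -0.16, Ms4a4c 0.69 and Tuba1b 0.0599. At day 1 Stmn1 was 0.11 with 1 partner. Within the day 1 cluster Btg2 was 0.10, Ccl8 -2.91, Clec4d -0.37, Creg1 -0.20, Fth1 -0.18, Ftl1 -0.10, Prdx6 -0.10 and Rac2 0.0597. Hmox1 was -1.10 there and Arg1 -0.37, while both had positive ratios over the whole day 1 library. No ratio was formed where both groups held 3 UMIs or fewer. The median of osteoclast-associated genes between the days was 0.21 from 100 CPM. The causes were not tested. Depth limits genes under 50 CPM, and 1 library per day cannot show how cells vary between animals.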

Other observations

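Clustered without Gpnmb, the day 1 library placed 55 of the 206 (26.7%) in a cluster led by Mmp12, Cd9, Slc7a11 and Slpi and 52 (25.2%) in one led by Ppbp, Pdpn, Spp1 and Hmox1. A cluster led by the interferon genes Cxcl10, Rsad2 and Ifit3 held 24 (11.7%). A cluster rich in class II genes held 2 (0.971%) of them and 53 (12.9%) of the matched cells.

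Glycolysis genes at day 5 had a median log2 ratio of 0.11 against -0.10 over all genes, with 2 of 11 higher and none lower. Genes of the unfolded protein response had a median of 0.04, with 1 of 14 higher and 1 lower. The growth factor Gdf15, known as a stress cytokine, stood at 185 against 112 CPM (log2 0.73). Vat1, a vesicle protein, stood at 110 against 37.5 CPM (log2 1.55), and Sgk1, a kinase, at 142 against 45.9 CPM (log2 1.63). Of 9 genes of apoptotic cell uptake 3 were higher and 2 lower (median 0.15), among them the scavenger receptor Stab1 at 235 against 133 CPM (log2 0.82) and the GTPase Rac2 at 259 against 459 CPM (log2 -0.82). Of 23 annexin, galectin, tetraspanin and related genes 6 were higher and 2 lower (median 0.07). Of 6 genes known from macrophages of the outer nerve sheath none was higher and 3 were lower (median -0.46). Of 2 osteoclast-associated genes at 50 CPM or more, the acid phosphatase Acp5 was higher at day 5, with 97.0 against 58.1 CPM (log2 0.74), and at day 1 it stood at 160 against 55.9 CPM (log2 1.52).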
